A study of Mus musculus with 10 samples.

Results

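The genes described here are 9 EF-hand calcium-binding proteins of neurons: Vsnl1, Hpca, Hpcal1, Hpcal4, Ncald and Ncs1 (the neuronal calcium sensor family), Necab1, and the calcium buffers Calb1 and Calb2. They were taken by gene name from a deposited table of 6147 mouse genes; all 9 were present. Levels are in TPM (transcripts scaled for gene length and library size), and all 9 were among the 6048 genes that averaged 1 TPM or more and entered the fit. The set was put together with the steep increases of Vsnl1 and Necab1 in these data already known. Its levels and differences are therefore given as a description, with no p-value for any of the 9. The samples were pieces of neocortex from wild-type CD1 mice, an outbred strain, on embryonic days E12.5 and E14, then E15.5 and E17, and on the day of birth (P0). Each stage had 2 libraries, described by the submitters as biological duplicates. No genotype, drug or injury was compared, and age is the only contrast that the labels give. The makeup of the dissected tissue also differed between stages, as described below. The sources used here do not give sex, litter or the number of animals per sample. RNA came from the cleared lysate of frozen tissue, and the libraries were stranded and enriched for mRNA.

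EF-hand proteins bind calcium in a short loop held between helices. Sensors of the neuronal calcium sensor family change shape when calcium rises in the cytosol, and most of them carry a fatty acid (myristate) on the glycine that follows the initiating methionine, which lets them move to membranes and act on receptors, channels and lipid kinases. Buffers such as calbindin (Calb1) and calretinin (Calb2) take up calcium and shape how far and how long a signal spreads, and in the cortex they are widely used as markers of neuron classes.

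The tissue label was checked against marker genes. Summed over the 8 of 10 neuronal markers present in the table, the level was 2725 to 2761 TPM at E12.5 and 9192 to 9886 TPM at P0, whereas the 6 of 9 progenitor markers present fell from 1385 to 1469.8 TPM to 195 to 201 TPM. Neuronal markers were thus present at every stage. The E12.5 and E14 samples also held transcripts of neighbouring tissue: the 5 meningeal markers summed to 173 TPM in both E12.5 libraries and 106 to 111 TPM at E14 but to 2.80 to 3.03 TPM at E15.5, and the 2 of 5 choroid plexus markers present went from 1405 to 1517 TPM at E14 to 3.46 to 4.25 TPM at E15.5. The 2 of 6 erythroid markers present went from 1878 to 1973 TPM to 8.38 to 9.12 TPM over the same step. The E17 libraries resembled each other least, with a standard deviation of 0.285 for the log2 difference between replicates over all tested genes, against 0.088 to 0.176 at the other stages. In bulk tissue, fewer cells of a type and less RNA per cell cannot be told apart.

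The start of each coding sequence is shown because the family's lipid anchor sits there. The first 30 coding bases in the GENCODE M21 annotation of GRCm38 are written 5′ to 3′ on the coding strand, with the codon after the start codon in capitals.
Vsnl1: atgGGGaaacagaatagcaaactggcccca
Hpcal4: atgGGGaaaaacaacagcaagctggccccc
Hpca: atgGGCaagcagaacagcaagctgcggcca
Hpcal1: atgGGCaagcagaacagcaagctgcgtcct
Ncald: atgGGGaaacagaacagcaagctgcgccct
Ncs1: atgGGGaaatccaacagcaagttgaagcct
Necab1: atgGAGgattcccgggagacttcgccttcc
Calb1: atgGCAgaatcccacctgcagtcatctctg
Calb2: atgGCTggcccgcagcagcagcccccttac
The 6 neuronal calcium sensors had a glycine codon (GGC or GGG) at this place. Necab1 had a glutamate codon, and Calb1 and Calb2 had alanine codons. The Vsnl1 stretch lies at chr12:11386947-11386976 on the minus strand and the Ncs1 stretch at chr2:31246179-31246208 on the plus strand.

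The same 6 sensors shared a calcium-binding loop at codons 73 to 84. These are the 36 coding bases of that loop, found by matching the PROSITE EF-hand pattern to the translated frame, with the codons of loop positions 1, 3, 5 and 12, which hold calcium in canonical EF-hands, in capitals.
Vsnl1: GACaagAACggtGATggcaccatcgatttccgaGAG
Hpcal4: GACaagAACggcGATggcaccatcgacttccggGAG
Hpca: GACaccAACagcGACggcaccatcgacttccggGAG
Hpcal1: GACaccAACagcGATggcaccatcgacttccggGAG
Ncald: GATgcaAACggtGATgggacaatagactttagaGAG
Ncs1: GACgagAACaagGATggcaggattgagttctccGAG
The pattern matched 3 loops in each of the 6 sensors, 1 in Necab1, 4 in Calb1 and 5 in Calb2. Hpca and Hpcal1 were the most similar pair of the 9, with 86.0% identical coding bases and a longest shared run of 38 bases. Vsnl1 and Hpcal4 followed with 82.4%, and Hpcal1 and Ncald with 80.1%. The longest run shared by any pair was 46 bases, between Hpca and Ncald. Ncs1 was the most distant sensor, with 64.0% to 65.3% identity to the other 5, and Calb1 and Calb2 shared 65.1%.

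The genes are spread over the genome (GRCm38), with Necab1 at chr4:14952245-15149794, Calb1 at chr4:15881264-15908064, Hpcal4 at chr4:123183227-123194701 and Hpca at chr4:129111570-129122036. Vsnl1 lies at chr12:11325242-11436613 and Hpcal1 at chr12:17690856-17791933. Ncald lies at chr15:37366175-37792570, Ncs1 at chr2:31245823-31295989 and Calb2 at chr8:110137502-110168210. Some of these loci overlap other annotated genes: Necab1 overlaps 2 antisense genes, Hpca overlaps the opposite-strand gene Tmem54, and Ncald overlaps 11 genes on either strand. The sources used here do not say whether counting used strand, so part of the signal of these loci could belong to their neighbours.

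**Figure D1:**
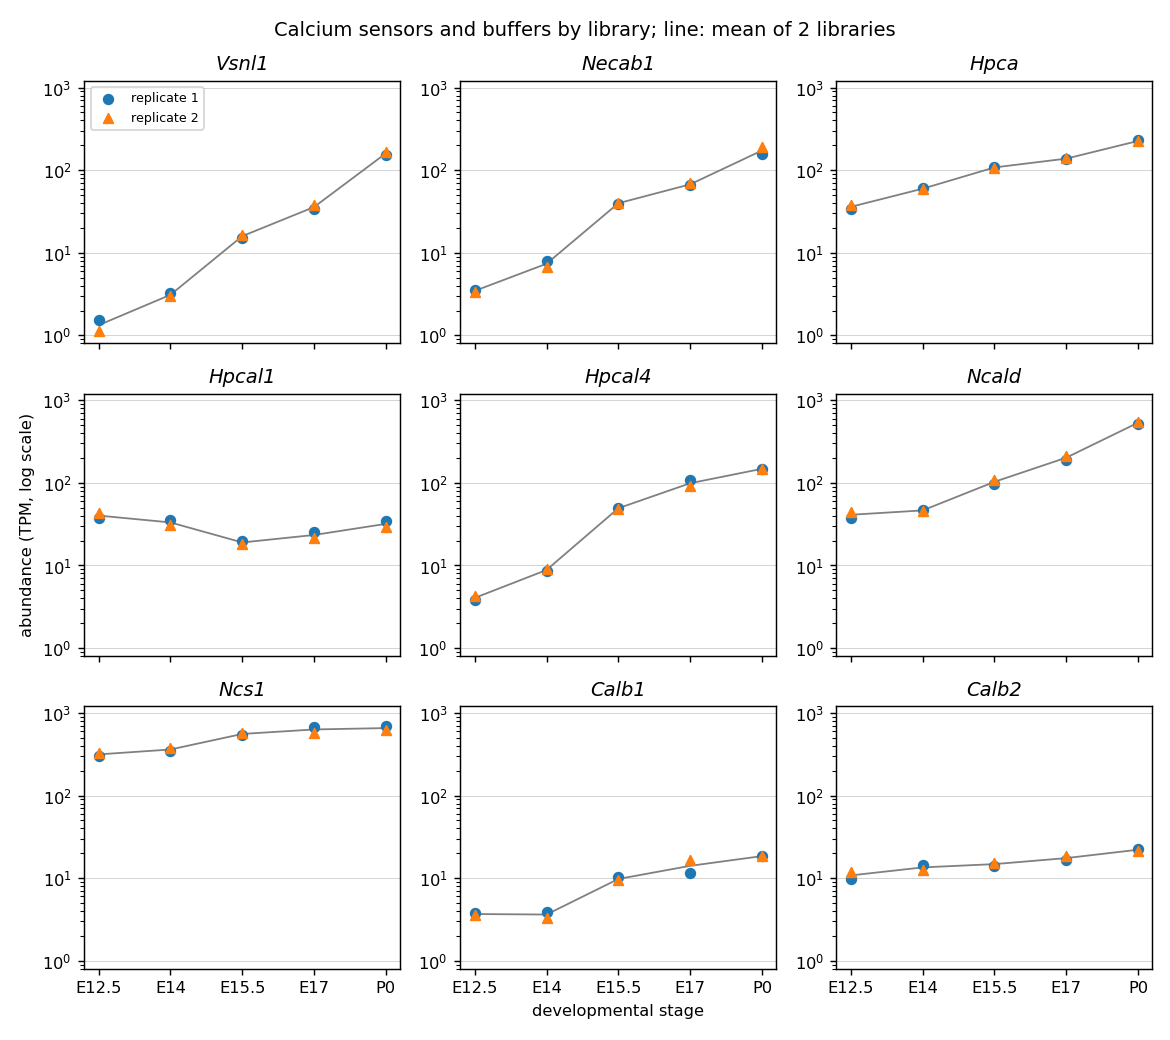
Level of each of the 9 genes in every library, in TPM on a log axis against stage; points are the 2 libraries of a stage and lines join stage means. Ncs1 is the top gene at every stage, Vsnl1 climbs from the bottom to 154 and 166 TPM at P0, and Hpcal1 dips to 18.3 and 19.7 TPM at E15.5.

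Vsnl1 encodes visinin-like protein, a myristoylated sensor that binds membranes when calcium rises. It measured 1.52 and 1.14 TPM at E12.5, 3.25 and 2.96 at E14, 15.1 and 16.6 at E15.5, 34.1 and 37.5 at E17, and 154 and 166 at P0. Both libraries of each stage were above both libraries of the stage before. The mean at P0 was 120.1 times that at E12.5, a fitted difference of 6.11 ± 0.12 (SE) on the log2(TPM + 1) scale, which ranked 1 of 6048 genes. The increase came in 2 large steps, 2.04 from E14 to E15.5 and 2.13 from E17 to P0, with 1.13 between them. Because the E12.5 level was close to the pseudocount of 1 TPM, the size depends on it: the whole-span difference was 6.82 with a pseudocount of 0.1 TPM and 3.91 with 10 TPM. With 10 TPM, the step from E12.5 to E14 was 0.21 and was no longer called.

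Hpcal4, hippocalcin-like 4, is the sensor closest in sequence to Vsnl1. It measured 3.77 and 4.33 TPM at E12.5, 8.46 and 9.18 at E14, 50.1 and 48.6 at E15.5, 107 and 91.5 at E17, and 149 and 147 at P0. No stage overlapped the next. From E12.5 to P0 the mean went up 36.5 times, with a log2 difference of 4.88 ± 0.10 (SE), rank 6 of 6048. Hpcal4 gained most from E14 to E15.5 (2.36) and 0.58 from E17 to P0, where Vsnl1 gained 2.13.

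Hpca encodes hippocalcin, a sensor that is abundant in pyramidal neurons and takes part in the calcium-gated slow afterhyperpolarisation. It measured 34.3 and 37.7 TPM at E12.5, 60.8 and 58.6 at E14, 109 and 106 at E15.5, 137 and 139 at E17, and 229 and 223 at P0. Each step was upward in both libraries, by 0.72, 0.84, 0.35 and 0.71. The difference over the whole span was 2.62 ± 0.07 (SE), or 6.29 times in mean TPM. The call of the smallest step, E15.5 to E17, was lost without either E15.5 library.

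Hpcal1, hippocalcin-like 1, is the closest relative of Hpca in coding sequence and had a different time course. It measured 37.3 and 43.1 TPM at E12.5, 35.1 and 31.3 at E14, 19.7 and 18.3 at E15.5, 25.2 and 21.6 at E17, and 34.7 and 29.1 at P0. The lowest libraries were thus those of E15.5, and the P0 libraries lay above them but below those of E12.5. The steps were -0.27, -0.77, 0.28 and 0.43 on the log2 scale (SE 0.12 each). The call of the last step was lost without P0 replicate 1 (0.31), and the E12.5 to E14 step, not called, was called in 2 of 17 alternative analyses. The difference from E12.5 to P0 was small, -0.33 ± 0.12, close to the median of all genes, -0.27. Its call was lost under quantile normalisation (-0.07), under median-of-ratios scaling (-0.06), without E12.5 replicate 2 (-0.23) and without P0 replicate 2 (-0.21). At E12.5 Hpca and Hpcal1 overlapped (means differing 1.12 times); at P0 the Hpca libraries, at 229 and 223 TPM, lay far above those of Hpcal1. The longest run of coding bases that these 2 genes share was 38. Whether reads from shared runs were counted for the wrong gene was not tested.

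Ncald encodes neurocalcin delta, a sensor linked to endocytosis and to membrane guanylate cyclases. It measured 37.8 and 44.3 TPM at E12.5, 46.8 and 45.9 at E14, 98.1 and 108 at E15.5, 189 and 214 at E17, and 522 and 548 at P0. Little separated E12.5 from E14 (0.18 ± 0.10 SE, not called), after which the steps were 1.13, 0.96 and 1.41. The P0 mean was 13 times the E12.5 mean, a log2 difference of 3.67 ± 0.10. At P0 Ncald stood next to Ncs1 at the top of the set.

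Ncs1 encodes neuronal calcium sensor 1, also called frequenin, which regulates transmitter release and phosphatidylinositol 4-kinase. It measured 305 and 326 TPM at E12.5, 351 and 372 at E14, 547 and 567 at E15.5, 685 and 577 at E17, and 692 and 620.0 at P0. Levels were already high at E12.5 and flattened late: the libraries of E17 and P0 overlapped, and the difference between them, 0.06 ± 0.10 (SE), changed sign in 3 of 17 alternative analyses. The step from E12.5 to E14 (0.20) was not called but was called in 2 of the 17. Over the whole span the mean went up 2.08 times, a log2 difference of 1.05 ± 0.10. Its largest step, 0.62, was again that from E14 to E15.5.

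Necab1 belongs to a small family of neuronal EF-hand proteins that also carry a monooxygenase-like domain. It measured 3.52 and 3.40 TPM at E12.5, 8.01 and 6.73 at E14, 39.1 and 40.5 at E15.5, 65.5 and 69.4 at E17, and 154.5 and 192 at P0. No stage overlapped the next. The P0 mean was 50.0 times the E12.5 mean, with a log2 difference of 5.28 ± 0.12 (SE), rank 4 of 6048. The step from E14 to E15.5, 2.29, made up 43.4% of this difference. The P0 libraries differed more from each other than those of earlier stages, with a standard deviation of 26.4 TPM around a mean of 173 (n = 2).

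The buffers were the least abundant members at birth. Calb1 measured 3.76 and 3.61 TPM at E12.5, 3.94 and 3.32 at E14, 10.2 and 9.41 at E15.5, 11.7 and 16.6 at E17, and 18.3 and 18.6 at P0. It was flat from E12.5 to E14, where the libraries overlapped, and then stepped up by 1.22 ± 0.15 (SE) to E15.5. The call of the next step (0.47) was lost in 10 of 17 alternative analyses, and the step was 0.71 with E17 replicate 1 left out and 0.24 with replicate 2 left out. The step from E17 to P0 (0.38) was not called but was called in 4 of the 17. Over the whole span the mean was 5.01 times higher, a log2 difference of 2.06 ± 0.15, and was 1.06 with a pseudocount of 10 TPM.

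Calb2 measured 9.66 and 11.9 TPM at E12.5, 14.5 in the higher and a mean of 13.5 ± 1.38 (SD, n = 2) over both libraries at E14, 14.2 and 15.3 at E15.5, 16.7 and 18.3 at E17, and 22.6 and 21.5 at P0. It drifted upward with no large step: differences lay between 0.12 and 0.32, none of the 4 steps was called, and the libraries of E14 and E15.5 overlapped. Some calls did appear in alternative analyses, in 4 of 17 for E17 to P0 and in the 2 that left out an E17 library for E12.5 to E14. The whole span was called, with a difference of 0.97 ± 0.12 (SE), or 2.04 times in mean TPM, and it was 0.63 with a pseudocount of 10 TPM. Both buffers also mark other cells of the cortex, including interneurons and, for Calb2, Cajal-Retzius cells. The 2 of 10 interneuron markers present summed to 36.8 to 37.2 TPM at E12.5 and 37.7 to 39.1 TPM at P0, with the widest spread at E17 (32.0 to 49.2 TPM). This near-level sum hides opposite directions of the 2 markers. Their log2 differences from E12.5 to P0 were -0.33, not called, and 2.01, called. The 1 of 8 Cajal-Retzius markers present measured 19.1 to 21.7 TPM at E12.5 and 14.2 to 15.4 TPM at P0. The part of these cells in the buffer levels was not tested.

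**Figure D2:**
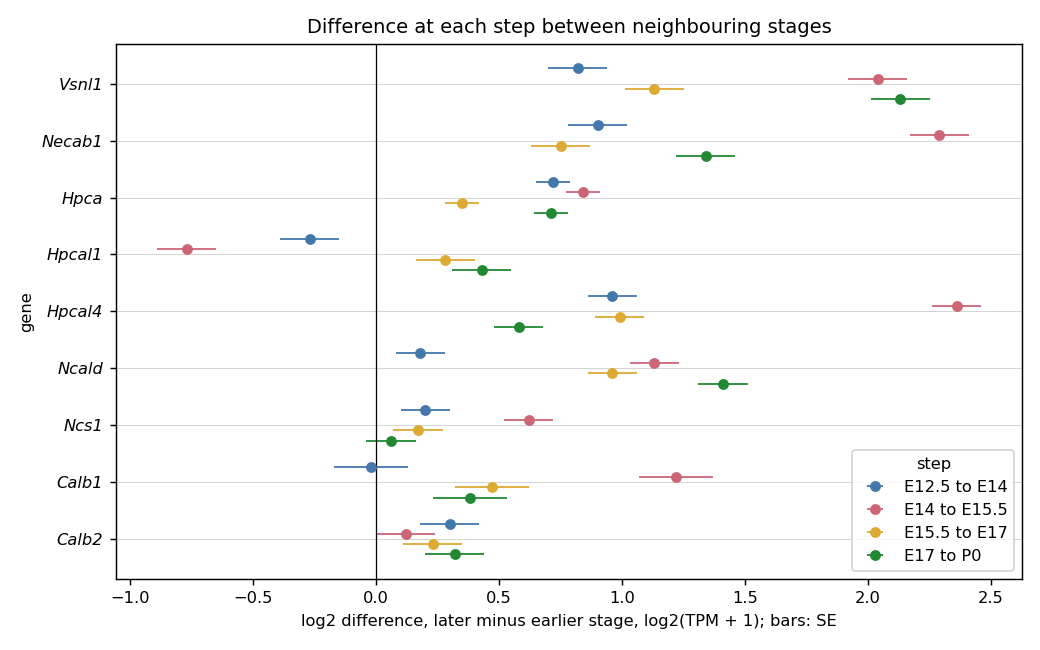
Fitted difference of each gene over each of the 4 steps between neighbouring stages, on the log2(TPM + 1) scale, later minus earlier, with the standard error. Vsnl1, Necab1 and Hpcal4 gain over 2 units from E14 to E15.5, Vsnl1 gains 2.13 again from E17 to P0, and Hpcal1 is the member with a clear step down, -0.77.

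Counted with limma at a Benjamini-Hochberg adjusted p under 0.05 over all genes, 4 of the 9 were higher and 0 lower from E12.5 to E14, where 8.73% of all tested genes were called, 3.95% higher and 4.78% lower. With either E17 library left out, 7 were called, 6 higher and 1 lower, while the genes called over the whole table went from 528 to 1769 without replicate 1 and 1765 without replicate 2. From E14 to E15.5, 7 were higher and 1 was lower, where 51.7% of all genes were called, 18.4% higher and 33.3% lower. The numbers were 6 and 0 from E15.5 to E17, where 25.0% of all genes were called (14.4% higher, 10.6% lower), and again 6 and 0 from E17 to P0, where 41.7% were called (12.9% higher, 28.8% lower). Over the whole span, E12.5 to P0, 8 were higher and 1 was lower, where 78.2% of all genes were called, 27.1% higher and 51.0% lower. The genes were chosen with these increases known, so nothing is read from the counts. The step from E14 to E15.5 is also the step at which the meningeal, choroid plexus and erythroid markers dropped and at which the summed neuronal markers went from 3653 to 3771 TPM to 7649 to 7757 TPM. The part of this change of tissue in the members' step was not tested.

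TPM allow the levels of different genes to be set side by side. Summed over the 9 genes, the E12.5 libraries measured 436 and 476 TPM, followed by 532 and 542 at E14, 903 and 930.2 at E15.5, 1271 and 1184 at E17, and 1976 and 1965 at P0. Ncs1 held 69.8% and 68.6% of this sum at E12.5 and 35% and 31.6% at P0. Over the same span Ncald went from 8.66% and 9.32% to 26.4% and 27.9%, and Vsnl1 from 0.348% and 0.240% to 7.81% and 8.42%. Hpcal1 took the opposite course, from 8.56% and 9.07% to 1.75% and 1.48%. At E12.5 a single sensor thus held most of the set's summed level, and at P0 none did.

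The order of the genes changed with this. Ncs1 was the highest at every stage, and the lowest was Vsnl1 at E12.5 and E14 and Calb1 from E15.5 on. The ratio of the highest to the lowest mean narrowed from 237 at E12.5 through 116, 56.9 and 44.6 at the stages between to 35.5 at P0. At E12.5 the order was Ncs1, Ncald, Hpcal1, Hpca, Calb2, Hpcal4, Calb1, Necab1 and Vsnl1, and the libraries of Ncald, Hpcal1 and Hpca overlapped as neighbours in it. At E15.5 Hpca and Ncald overlapped, as did Vsnl1 and Calb2. At P0 the order was Ncs1, Ncald, Hpca, Necab1, Vsnl1, Hpcal4, Hpcal1, Calb2 and Calb1, and Necab1 and Vsnl1 overlapped. Neighbours at E14 and at E17 did not overlap.

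**Figure D3:**
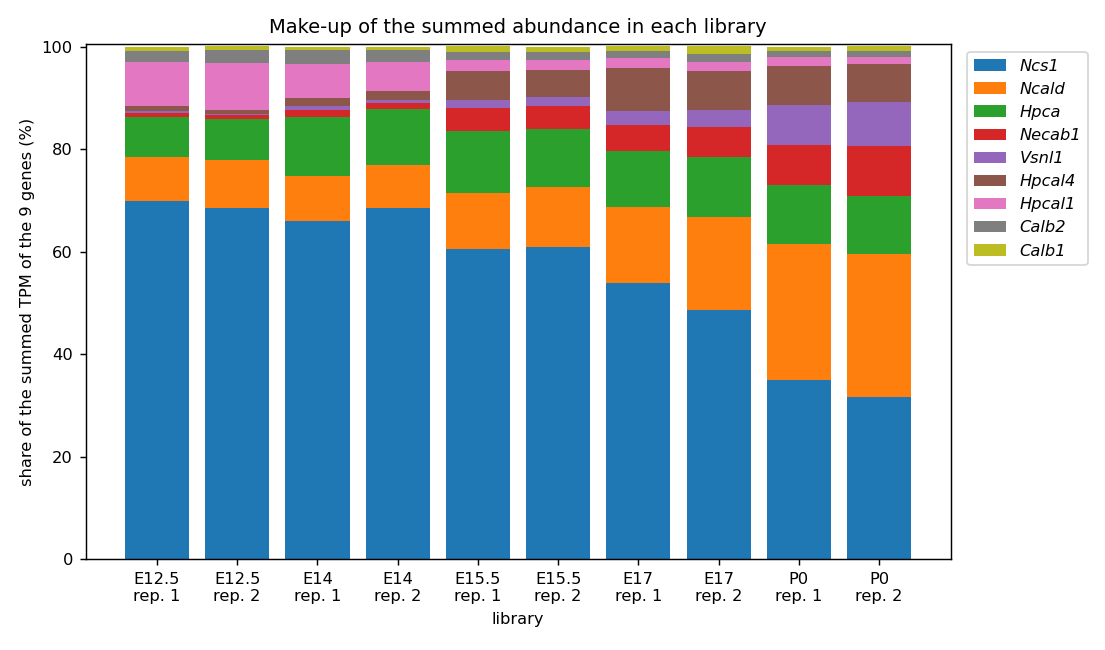
Share of the summed TPM of the 9 genes held by each gene, in percent, with a stacked bar for each of the 10 libraries. The Ncs1 share shrinks from 69.8% and 68.6% at E12.5 to 35% and 31.6% at P0 while those of Ncald and Vsnl1 widen.

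Since the summed neuronal markers were higher at later stages, each gene was also set against the mean log2(TPM + 1) of the 8 neuronal markers in the same library. All 8 markers were themselves called higher at P0, with log2 differences from E12.5 between 0.56 and 3.04 and a median of 1.32, so the offsets depend on which markers are averaged. Relative to them, 6 members were higher at P0, by 4.33 for Vsnl1, 3.50 for Necab1, 3.10 for Hpcal4, 1.89 for Ncald, 0.84 for Hpca and 0.27 for Calb1. The other 3 were lower relative to the markers, at -0.73 for Ncs1, -0.81 for Calb2 and -2.11 for Hpcal1. The log2 differences of Hpca (2.62), Calb1 (2.06), Ncs1 (1.05) and Calb2 (0.97) lay within the range of the single markers. The position of Ncald changed late: it was -2.36 and -2.15 at E12.5, -2.46 and -2.35 at E15.5, and -0.36 in both libraries at P0.

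**Figure D4:**
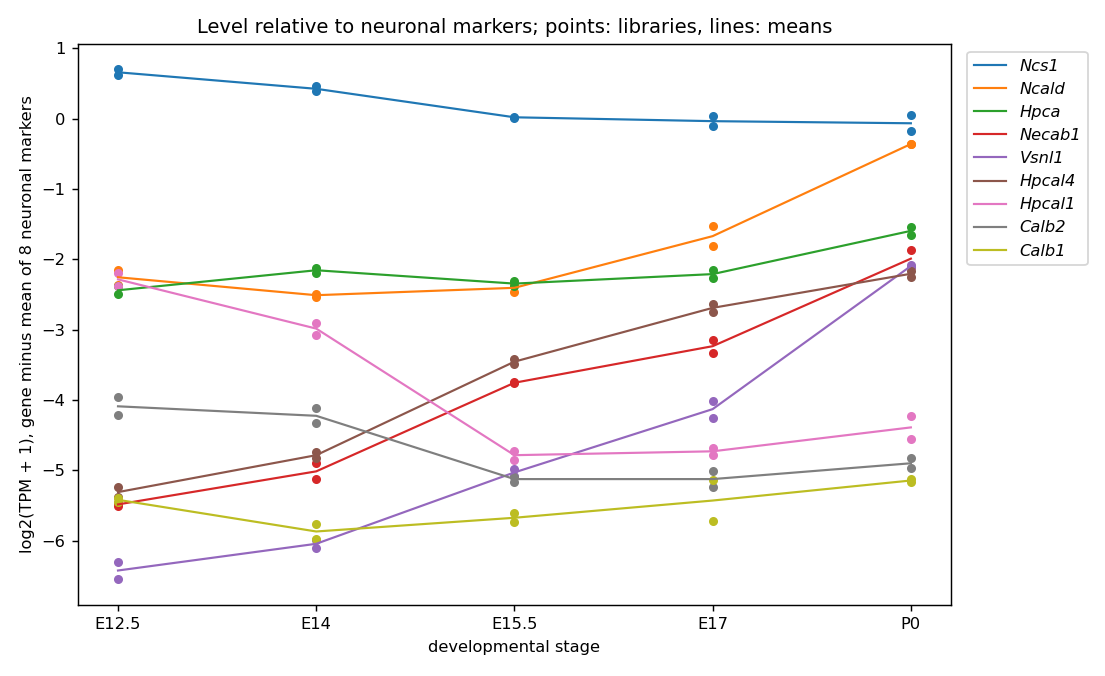
Level of each gene minus the mean of 8 neuronal markers in the same library, on the log2(TPM + 1) scale, against stage; points are libraries and lines join stage means. Vsnl1, Necab1 and Hpcal4 approach the markers over the whole span, Ncald does so after E15.5, and Hpcal1 falls away from them between E12.5 and E15.5.

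Across the 10 libraries, log2(TPM + 1) of the 8 members other than Hpcal1 ran closely together, with Pearson's r between 0.86 and 0.99 over 28 pairs, whereas Hpcal1 had r between -0.61 and -0.30 with them. These values describe 10 libraries that share 5 stages, so any pair of genes that moves steadily with age scores high. Among 5422 other genes averaging 10 TPM or more, the closest to Vsnl1 were Gda (r = 0.998), which encodes the guanine deaminase cypin, Pkia (0.997), an inhibitor of protein kinase A, and Clvs2 (0.997), a clathrin-binding protein of neurons. Gda averaged 0.322 TPM at E12.5, and its P0 mean was 66.1 TPM. The closest to Necab1 were Rnf14, Erc2, a scaffold of the presynaptic active zone, and Gnai1, an inhibitory G protein subunit (r = 0.998 each). For the rest, the closest genes were Prkcz for Hpcal4 (0.999), Shroom2 for Ncald (0.998), Pdrg1 for Hpca (0.997), Hsdl1 for Ncs1 (0.995), Kctd4 for Calb1 (0.993), Sh3bgrl3 for Calb2 (0.976) and Pgp for Hpcal1 (0.970).

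Other genes of calcium handling were counted from 4 lists of textbook roles, of which 45 of 107 genes were in the table. From E12.5 to P0, 19 of the 45 rose, 18 fell and 8 did not pass the test (limma, Benjamini-Hochberg adjusted over all genes), where 78.2% of all genes were called, 27.1% higher and 51.0% lower. These 45 genes had a median log2 difference of 0.10 against -0.27 for all genes. Of the other EF-hand sensors, 7 of 30 were in the table, and 1 rose, 4 fell and 2 did not pass, with a median of -0.41. The members of this list with the largest falls were Gca, encoding grancalcin (-1.78 ± 0.13, adjusted p = 1.1e-07), and Efhd2, encoding swiprosin (-1.18 ± 0.09, adjusted p = 3.24e-07). Sri (0.10, adjusted p = 0.216) and Pdcd6 (-0.02, adjusted p = 0.806) did not pass; under median-of-ratios scaling both passed, at 0.38 and 0.26.

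Of the other calcium buffers, 11 of 23 were in the table, and 2 rose and 9 fell, with a median of -1.30. Over the same span, E12.5 to P0, 27.1% of all tested genes were called higher and 51.0% lower. These are mostly calcium-binding proteins of the secretory pathway, found in all cell types. Rcn3, a reticulocalbin, went from 42.8 and 42.7 TPM at E12.5 to 5.66 and 3.98 TPM at P0 (-2.93 ± 0.13 SE, adjusted p = 2.43e-09), and Rcn1 from 166 and 156 TPM to 37.9 and 40.1 TPM (-2.02 ± 0.09, adjusted p = 1.44e-09). Calr, the calcium-storing chaperone calreticulin, fell by 1.42 ± 0.10 (adjusted p = 1.54e-07). The 2 that rose were S100a13 (0.73 ± 0.17, adjusted p = 0.00187) and Nucb2 (0.58 ± 0.13, adjusted p = 0.00153). The part of meningeal cells in these falls, whose summed markers went from 173 TPM in both E12.5 libraries to 2.22 to 2.57 TPM at P0, was not tested.

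Of the pumps, exchangers and store channels, 15 of 35 were in the table, and 9 rose, 3 fell and 3 did not pass, with a median of 0.55. Among all tested genes 78.2% were called from E12.5 to P0, 27.1% higher and 51.0% lower. Itpr1, the inositol trisphosphate receptor that releases calcium from the endoplasmic reticulum, was highest at E17, with 23.8 and 17.4 TPM, and went from 4.55 and 5.0 TPM at E12.5 to 12.8 and 15.2 TPM at P0 (1.37 ± 0.14 SE, adjusted p = 3.49e-06). Plasma membrane calcium pumps rose, Atp2b3 by 1.13, Atp2b1 by 0.90 and Atp2b2 by 0.87 (largest adjusted p = 0.000291). The pumps of intracellular stores went the other way, with Atp2a2 at -0.51 (adjusted p = 0.00126) and Atp2c1 at -0.50 (adjusted p = 0.000423). Mcu, the mitochondrial calcium uniporter, rose by 0.85 (adjusted p = 4.92e-06), and Micu3, a regulator of it, rose by 1.10 (adjusted p = 1.21e-05). The rise of the sodium-calcium exchanger Slc8a1 (0.84 ± 0.25, adjusted p = 0.00939) lost its call without P0 replicate 2 (0.54). Slc8a1 was highest at E17, with 27.5 and 14.5 TPM, and measured 7.16 and 11.4 TPM at P0, a difference of -1.06 ± 0.25 over that step.

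Of calcineurin and the known partners of the sensors, 12 of 19 were in the table, and 7 rose, 2 fell and 3 did not pass, with a median of 0.56. The share called among all tested genes was 78.2%, with 27.1% higher and 51.0% lower. The catalytic subunits of calcineurin, the calcium-activated phosphatase, rose: Ppp3ca went from 78.6 and 74.7 TPM to 261 TPM in both P0 libraries (1.75 ± 0.07 SE, adjusted p = 1.37e-09) and Ppp3cb by 1.22 ± 0.10 (adjusted p = 3.93e-07). Its regulatory EF-hand subunit Ppp3r1 rose by 1.06 ± 0.08 (adjusted p = 3e-07). The largest change was in Cltb, a clathrin light chain, from 40.6 and 40.4 TPM to 236 and 217 TPM (2.45 ± 0.07, adjusted p = 1.03e-10). Pi4kb, the lipid kinase that binds Ncs1, did not pass (0.10 ± 0.10, adjusted p = 0.370) but was at 0.37 and passed under median-of-ratios scaling. Ric8a, a chaperone of G protein subunits that binds Ncs1, rose by 0.79 ± 0.10 (adjusted p = 1.35e-05). The 2 that fell, Cltc (-0.31, adjusted p = 0.0215) and Impa1 (-0.18, adjusted p = 0.0395), lost their calls under quantile normalisation (-0.11 and -0.05).

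**Figure D5:**
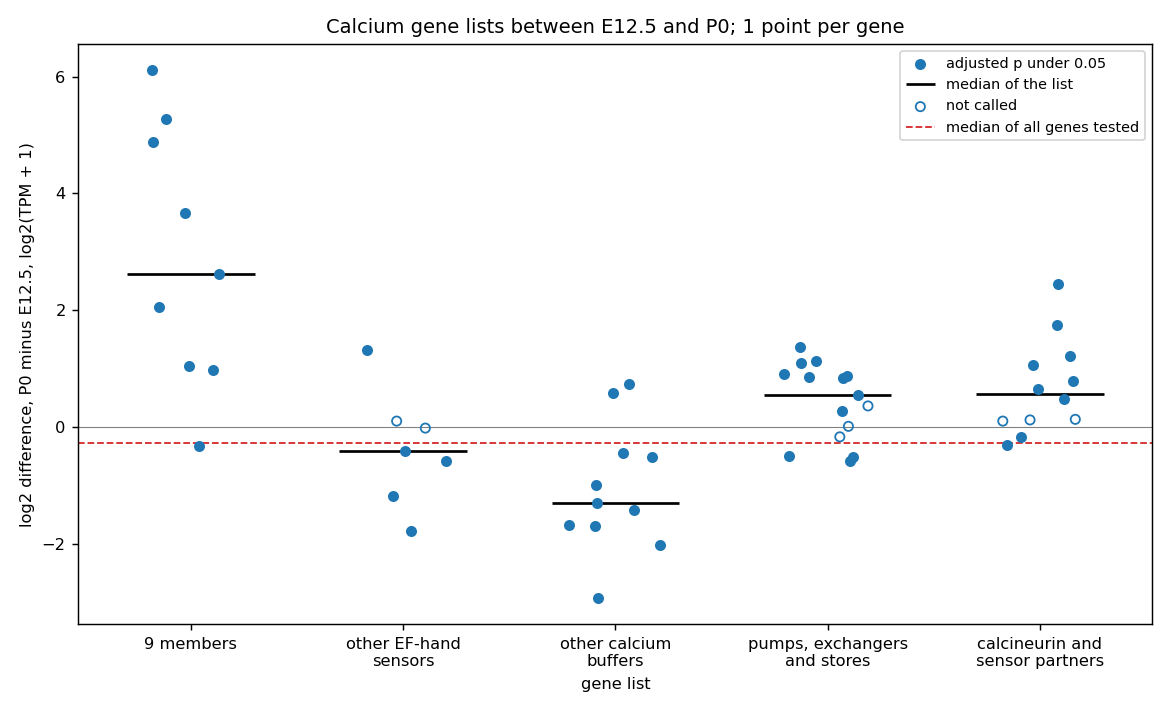
Fitted log2(TPM + 1) difference from E12.5 to P0 for the 9 members and for the genes of the 4 other calcium lists, 1 point per gene, grouped by list, with a line at the median of all tested genes (-0.27). The members reach 6.11, 9 of the 11 other buffers lie below 0, and the highest gene of the other lists is Cltb at 2.45.

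Single steps were counted for the same 45 genes, beside the shares of all tested genes. From E12.5 to E14, 1 rose and 4 fell (3.95% and 4.78% of all genes), and from E14 to E15.5, 14 rose and 13 fell (18.4% and 33.3%). From E15.5 to E17, 13 rose and 2 fell (14.4% and 10.6%), and from E17 to P0, 8 rose and 11 fell (12.9% and 28.8%). The counts of the first and the third step depend on single libraries: 5 listed genes were called from E12.5 to E14 but 0 without E12.5 replicate 1, E12.5 replicate 2 or E14 replicate 1, 2 without E14 replicate 2 and 17 without either E17 library, and 15 were called from E15.5 to E17 but 6 with E15.5 replicate 1 left out and 5 with replicate 2 left out.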

How the data were processed

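The authors deposited 1 table of TPM values for 10 libraries; per the submitters' processing notes, STAR, Subread and the build GRCm38.p5 were used, in roles and versions not given in the sources used here. Gene lengths, the annotation and the rule that selected the 6147 listed genes are likewise not given. The listed genes held 68.9% to 71.7% of a library's full TPM scale. TPM keep no read depth, so the precision of low values is unknown. All 10 columns were matched to samples by title, leaving 0 unused.

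The 6048 genes averaging 1 TPM or more were fitted as log2(TPM + 1) with limma 3.58.1 (R 4.3.3). The model held a mean for each stage, used all 10 libraries (5 residual degrees of freedom) and had a trended variance and Benjamini-Hochberg adjustment over all tested genes. A call is an adjusted p under 0.05. Differences are later minus earlier. On simulated data for E12.5 to P0 with 6048 genes, 194 of 200 genes shifted by 1 log2 unit were recovered, with 12 false calls. The simulation changed only those 200 genes and gave each gene the same spread at all stages. In the data the E17 libraries differed most from each other, so these rates need not hold there. The p-values set each stage difference against the spread between duplicates, pooled over all stages and thus including the E17 pair.

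The members and gene lists were chosen with earlier results of these data known, so the lists' counts are not independent evidence of their direction. Named genes were all 9 members, the 2 highest and 2 lowest called genes of each list from E12.5 to P0, any list gene discussed by role, and the genes with the highest Pearson r to each member (3 for Vsnl1 and Necab1, 1 for the others; unnamed gene models left out). Alternatives were 7 other settings of pseudocount, filter, scaling and replicate block, and leaving out each library. Whether replicate numbers pair the samples across stages is not known from the sources used here.

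Coding sequences came from GENCODE M21 (GRCm38), 1 transcript per gene. The comparison was planned on proteins and was made on coding bases, aligned globally with Biopython 1.88; loops were sought in the translated frame with the PROSITE EF-hand pattern. Some listed and marker genes are not reported singly here.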

Additional observations from a re-analysis of the deposited data

How the results depend on the processing

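Over 17 alternatives, the 9 members kept their direction from E12.5 to P0. Of 45 member differences, 12 changed their call under at least 1 alternative. Quantile normalisation called 901 genes from E12.5 to E14, against 528, and 8 listed calcium genes, against 5. Leaving out single libraries gave 65 to 1769 genes, 4 to 7 members and 0 to 17 listed genes for that step. It gave 466 to 3164 genes (1514 with all libraries) and 5 to 17 listed genes (15) from E15.5 to E17, and 1641 to 3767 genes (2525) from E17 to P0; the lowest count came without P0 replicate 1. Median-of-ratios scaling reversed the whole-span differences of Impa1 (0.09, adjusted p = 0.312) and Pdcd6 (0.26, adjusted p = 0.0140), and it moved the median of all genes from -0.27 to -0.01. The cause of these changes was not tested. With the replicate number as a block, 4676 genes were called from E12.5 to P0, against 4728, with the same 9 members called; Impa1 lost its call (adjusted p = 0.0602). Deviations of same-numbered libraries correlated between -0.375 and 0.107 across pairs of stages. With 2 libraries per stage, this check cannot tell whether same-numbered samples were handled together. Read depth is not known from TPM, which limits what can be said of members near 1 TPM, chiefly Vsnl1 at E12.5. Atp2b3 and S100a13 averaged less than 5 TPM and have no value under that stricter filter.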
